A study of Mus musculus with 8 samples.

Results

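The region described here is a stretch of mouse chromosome 15 around Myc and its neighbour Pvt1, from 60000000 to 62500000 in build mm9, with Myc placed at about 61.82 Mb, Pvt1 just downstream and a gene desert upstream. Its members are all listed peaks of 3 histone marks that overlap this window by at least 1 bp. They number 17 of 7689 peaks: 2 of the 4999 H3K36me3 peaks, 14 of the 1691 H3K36me2 peaks and 1 of the 999 H3K27me3 peaks. Peaks were selected on position, but the window itself was chosen by measured values, the low K36M over WT ratios of H3K36me2 in the desert. Its values are therefore a description, and no test was made.

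The data are spike-in normalized chromatin immunoprecipitation sequencing (ChIP-Rx) from C3H10T1/2 cells, a mouse mesenchymal progenitor line derived from C3H embryos. One line stably expressed FLAG-HA-tagged wild-type histone H3.3 (WT) and the other the FLAG-HA-tagged K36M mutant, in which lysine 36 is replaced by methionine. Cells of both lines were at passages 10 to 15 and expressed the tagged histone in addition to their own histone H3. Each mark was measured in 1 library per genotype, with Drosophila S2 chromatin equal to 5% of the mouse chromatin added as the reference, so no difference below has a replicate check. Intervals beside ratios are exact Clopper-Pearson 95% intervals from the reads of both libraries and cover counting error only, not error between cultures.

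Myc encodes a basic helix-loop-helix leucine zipper transcription factor that drives cell growth and proliferation, and Pvt1 is a long non-coding RNA gene beside it that is often gained together with it in tumours. The gene-poor stretches on both sides of Myc hold distant enhancers that act on it in several tissues. H3K36me2, laid down largely by the NSD enzymes, covers genes and wide tracts between them. H3K36me3, laid down by SETD2, follows transcribed gene bodies, and H3K27me3, laid down by Polycomb repressive complex 2, covers silenced regions. In RefSeq's annotation, whose build differs from that of the peaks and which was used only for the order of genes, 9 genes lie between Lratd2 and Myc. Of these, 1 is protein-coding (A1bg) and 5 are long non-coding RNAs. No gene lies between Myc and Pvt1, and Gsdmc is the next protein-coding gene after Pvt1. A peak is tied to Myc here only by the stated position and to Pvt1 only by the stated order.

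Over the 14 H3K36me2 peaks around Myc and Pvt1, summed signal was 53787 spike-in normalized reads in the WT library against 10718 in the K36M one. The K36M level was 0.199 of the WT level (counting interval 0.196 to 0.203), or 5.02-fold lower. Summed over all listed H3K36me2 peaks the difference was 4.02-fold, and over those of chromosome 15 outside the window 4.28-fold. The median log2 ratio (K36M over WT) of the 14 peaks was −2.41, with a range of −2.69 to −1.28. It lay 0.34 below the median of all H3K36me2 peaks, which was −2.07, and 0.26 below the chromosome 15 median of −2.15. These deviations do not depend on the spike-in factors, which shift all peaks of a mark alike. Of the 14 peaks, 13 were at least 4-fold lower, beside 59.0% of all H3K36me2 peaks and 62.8% of the chromosome 15 peaks outside the window. At least 5-fold lower were 8 of the 14, beside 19.5% of all H3K36me2 peaks and 28.9% of those on chromosome 15 outside the window. H3K36me2 was lower in K36M in each of the 14 peaks, as it was in all 1691 of the table. The 14 peaks differed from each other by up to 2.67 times in their ratio.

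**Figure D1:**
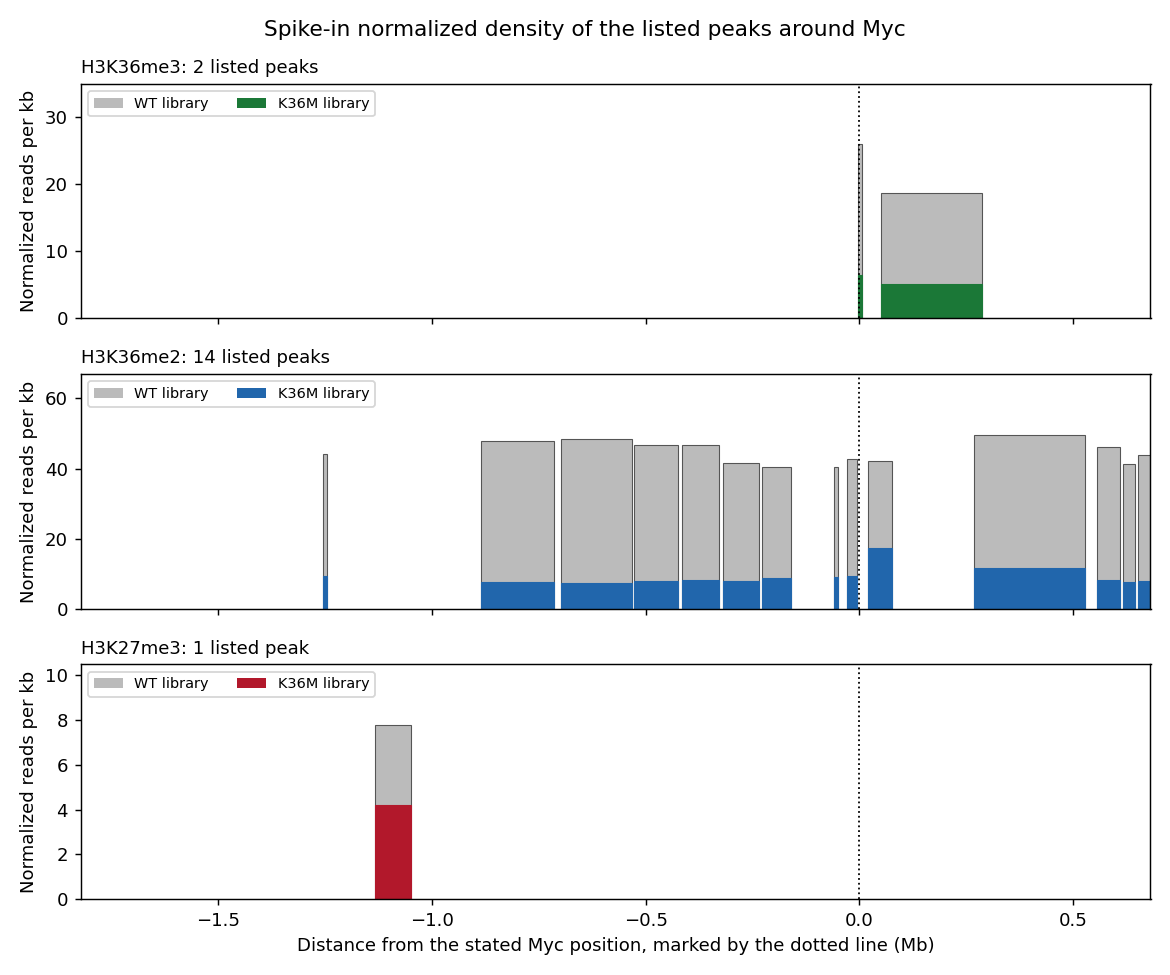
Spike-in normalized reads per kb (vertical axes, one panel per mark) of each listed peak against its distance from the stated Myc position in Mb, with bar width equal to peak length, grey for the WT library and colour for the K36M library. H3K36me2 forms a chain of peaks in the upstream desert, at 40.4 to 48.3 reads per kb in WT. H3K36me3 is listed only at and just downstream of Myc, and H3K27me3 only 1.05 to 1.13 Mb upstream.

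In the desert upstream of Myc, 6 H3K36me2 peaks formed an almost unbroken chain. It ran for 726 kb from 60934800 to 61660799, ended 0.16 Mb short of the stated Myc position, and had gaps of only 5.6 to 17.2 kb, so that 93.3% of it was covered. The chain had a summed signal of 31228 normalized reads in the WT library against 5339 in the K36M one, a ratio of 0.171 (0.167 to 0.175) and a 5.85-fold difference. All 6 of its peaks were below both the H3K36me2 median and the chromosome 15 median.

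The peak farthest from Myc in this chain, from 60934800 to 61105399, had 8153 normalized reads in the WT library against 1302 in the K36M one. Its ratio was 0.160 (0.153 to 0.167). The next, from 61122600 to 61287399, had 7963 (WT) against 1231 (K36M) normalized reads and the lowest ratio of the window, 0.155 (0.148 to 0.162). Both are long domains, of 171 kb and 165 kb, and stood 12th and 14th of 1691 by WT signal. The counting intervals of the pair overlap, so counting error does not separate them.

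Along the rest of the chain the ratio was higher from each peak to the next one toward Myc. The peak from 61293000 to 61394999 had 4751 normalized reads in the WT library against 808 in the K36M one, a ratio of 0.170 (0.160 to 0.180). From 61404200 to 61491399 the values were 4082 and 722, a ratio of 0.177 (0.166 to 0.188). The intervals of these neighbours overlap, whereas those of the ends of the chain do not. From 61500800 to 61584599 the ratio was 0.193 (0.181 to 0.206), from 3486 and 673 normalized reads. The last, from 61591600 to 61660799, had 2793 and 603 and a ratio of 0.216 (0.201 to 0.232). Both libraries entered this gradient: from the peak with the lowest ratio to the last of the chain, WT density went from 48.3 to 40.4 normalized reads per kb and K36M density from 7.47 to 8.72.

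Relative to the median densities of the mark, both libraries contributed to the low ratios of the 4 chain peaks farthest from Myc. In the 2 nearer to Myc only the K36M density did. In WT the 4 chain peaks farthest from Myc had 46.6 to 48.3 normalized reads per kb, with 73.0% to 78.5% of all H3K36me2 peaks below them. The 2 nearer to Myc had 41.6 and 40.4, with 43.3% and 32.4% below them, and the median over all peaks was 42.6. In K36M the 6 had 7.47 to 8.72, with 7.21% to 24.4% of all peaks below them, beside a median of 10.3. The ratio is built from these values and belongs to the contrast by which the window was chosen.

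**Figure D2:**
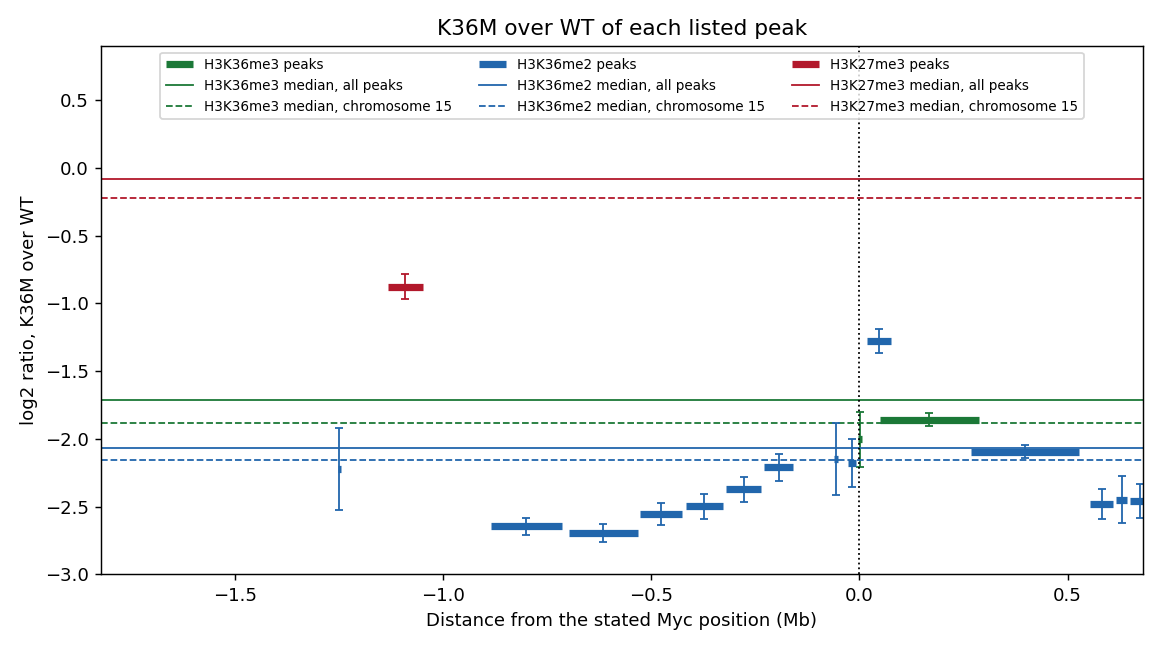
log2 ratio of K36M over WT (vertical axis) of each of the 17 listed peaks against distance from the stated Myc position in Mb, with thick bars spanning each peak and whiskers giving the 95% counting interval. Solid lines are the medians of all peaks of a mark and dashed lines its chromosome 15 medians. H3K36me2 goes from −2.69 in the desert to −2.21 at the end of the chain and −1.28 just past Myc, then back to −2.48 and −2.45 beyond Pvt1.

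Between the chain and Myc, 2 short H3K36me2 peaks were closer to the medians. The peak from 61760000 to 61769799 had 396 normalized reads in the WT library against 89.4 in the K36M one, a ratio of 0.226 (0.187 to 0.271). The peak nearest to Myc on its upstream side, from 61791800 to 61812999, had 903 (WT) against 200 (K36M) normalized reads, a ratio of 0.221 (0.195 to 0.250). They rest on 172 and 384 reads in K36M, so their intervals take in the H3K36me2 median ratio of 0.239 and also the ratio of the last peak of the chain. One further upstream peak, a 7.4 kb region from 60567400 to 60574799 about 1.25 Mb from Myc, had 327 (WT) against 70.2 (K36M) normalized reads. Its ratio of 0.215 (0.174 to 0.264) rests on 135 reads in K36M, the fewest of any peak in the window.

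Directly downstream of Myc, H3K36me2 was lower by less. The H3K36me2 peak from 61839400 to 61895599, which began 0.019 Mb from the stated Myc position and reached into the Pvt1 side, had 2365 normalized reads in the WT library against 976 in the K36M one. Its ratio was 0.413 (0.388 to 0.439), a 2.42-fold difference, and it was the only 1 of the 14 that was less than 4-fold lower. Its log2 ratio of −1.28 was 0.79 above the H3K36me2 median and 0.88 above that of chromosome 15, where 11 of 291 peaks had a higher ratio. In WT its density of 42.1 normalized reads per kb was close to the median of the mark. In K36M its 17.4 was above 91.4% of all H3K36me2 peaks, so the library of the mutant kept more signal per kb here than in the other 13 peaks of the window. This peak shares 25.6 kb of its 56.2 kb with the H3K36me3 domain at Pvt1.

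The largest H3K36me2 domain of the window lay over and beyond the far end of the same H3K36me3 domain. It ran for 259 kb from 62088200 to 62346999 and had 12830 normalized reads in WT, the fifth highest value of all H3K36me2 peaks, and 3005 in K36M. Its ratio of 0.234 (0.227 to 0.242) was a 4.27-fold difference, near the median of the mark. It shared 18.0 kb with the H3K36me3 domain. Between this domain and the peak next to Myc, a gap of 193 kb inside the H3K36me3 domain held no listed H3K36me2 peak.

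Past it, 3 H3K36me2 peaks from 62374200 to 62517999 were again low and close to each other. From 62374200 to 62429399 the values were 2548 normalized reads in the WT library against 457 in the K36M one, a ratio of 0.179 (0.166 to 0.194). The next, from 62436400 to 62462999, had 1098 (WT) against 201 (K36M) normalized reads, a ratio of 0.183 (0.163 to 0.206). The last, from 62470200 to 62517999, had 2091 and 380, a ratio of 0.182 (0.167 to 0.198), and runs past the end of the window. Summed, these 3 peaks were 5.53-fold lower, beside 5.85-fold in the upstream chain, so low ratios lay on both sides of Myc and Pvt1.

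In 3 of the 14 H3K36me2 peaks there was an overlap with a listed H3K36me3 peak. Besides the pair at Pvt1, this was the last peak, over only 1.2 kb. The 3 had ratios of 0.413, 0.234 and 0.182, and the 11 others had ratios of 0.155 to 0.226, so the groups overlap. Summed, the 3 were 3.96-fold and the 11 were 5.74-fold lower. Over the whole table, peaks with such an overlap had a median log2 ratio of −1.63 and those without it −2.13. On chromosome 15 outside the window the medians were −1.90 (99 peaks) and −2.23 (178 peaks), beside −2.45 for the 11 peaks here. Against long domains alone, those of at least 40 kb with no H3K36me3 overlap, the median of 7 peaks in the window was −2.50 and that of all 245 was −2.17. Among those 245 domains the 7 ranked 3rd, 5th, 13th, 22nd, 26th, 52nd and 108th from the lowest ratio. The last of the chain was the one near the middle. Of the 7, 6 are chain peaks of the desert, whose low ratios chose the window, so these ranks are description only.

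**Figure D3:**
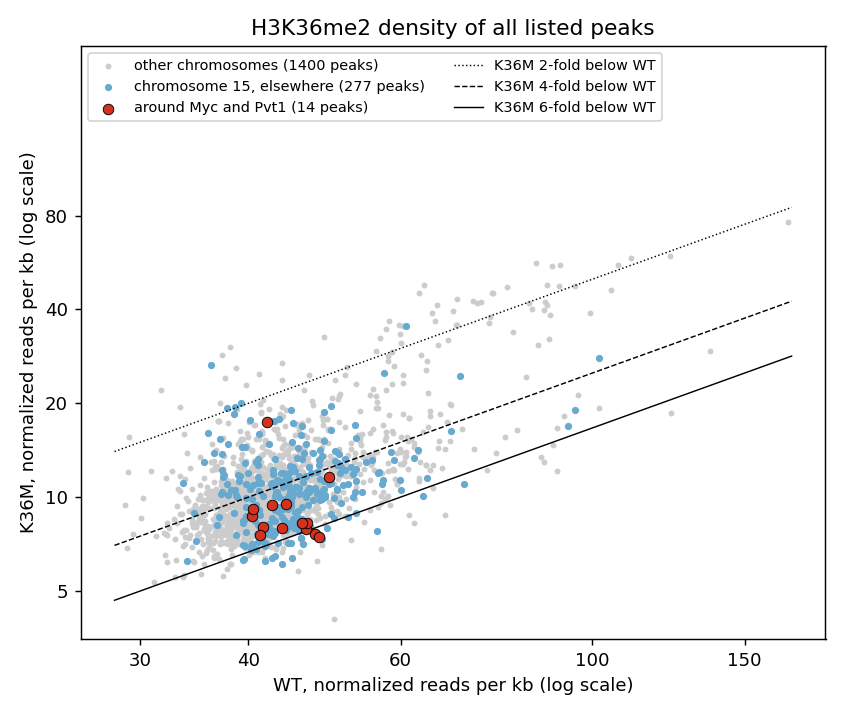
H3K36me2 in K36M against WT, both in spike-in normalized reads per kb on log axes, for all 1691 listed peaks, with lines at 2-, 4- and 6-fold lower values. The 14 peaks around Myc and Pvt1 (red) span a narrow range in WT, 40.4 to 49.6, and 7.47 to 17.4 in K36M, where 1 of them lies well above the rest.

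H3K36me3 was listed at 2 places in the window, over Myc and over the stretch just downstream where Pvt1 lies. The peak that covers the stated Myc position, from 61817200 to 61826999, was 9.8 kb long and had 254 normalized reads in the WT library against 63.4 in the K36M one. Its ratio was 0.250 (0.216 to 0.287), a 4.01-fold difference, from 651 and 288 reads. The log2 ratio of −2.00 was 0.29 below the median of all H3K36me3 peaks, which was −1.71, and 0.12 below the chromosome 15 median of −1.88. Its interval in log2, −2.21 to −1.80, takes in the chromosome 15 median. By density this was a strong H3K36me3 peak: 25.9 normalized reads per kb in WT exceeded 89.8% of all H3K36me3 peaks, and 6.47 in K36M exceeded 65.3%. It did not overlap listed H3K36me2, whose nearest peaks ended 4.2 kb before it and began 12.4 kb after it.

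The H3K36me3 domain downstream of Myc, taken here as that of Pvt1, ran for 236 kb from 61870000 to 62106199, 43.0 kb past the end of the peak over Myc. It had 4423 normalized reads in WT, the 26th highest of 4999, and 1219 in K36M. Its ratio of 0.276 (0.267 to 0.285) was a 3.63-fold difference. The log2 ratio of −1.86 was 0.15 below the H3K36me3 median and only 0.02 above that of chromosome 15. The counting intervals of the Myc and Pvt1 peaks overlap, so a difference between them was not detectable at this depth. Of the 2, only the peak over Myc was at least 4-fold lower, beside 9.96% of all H3K36me3 peaks and 28.2% of those on chromosome 15 outside the window, and its interval reaches to both sides of that threshold.

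The marks therefore ranked differently at the 2 ends of Pvt1. Over the domain as a whole H3K36me3 was 3.63-fold lower, H3K36me2 in the peak at its Myc end was 2.42-fold lower, and H3K36me2 in the domain at its far end was 4.27-fold lower. The peaks overlap only in part, at the far end over 18 kb of the 259 kb H3K36me2 domain. Each mark has its own antibody and spike-in factors, and no error can be given for differences between these values.

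H3K27me3 was listed once, in an 84.0 kb domain from 60688000 to 60771999, which is 1.05 to 1.13 Mb upstream of the stated Myc position. It had 652 normalized reads in the WT library against 355 in the K36M one, a ratio of 0.544 (0.511 to 0.579) and a 1.84-fold difference. Its log2 ratio of −0.88 was 0.79 below the H3K27me3 median of −0.08 and 0.65 below the chromosome 15 median of −0.22. It stood 28th of 999 from the lowest ratio and 11th of 119 on chromosome 15. A difference of at least 1.5-fold, which it passed, was found in 8.11% of all H3K27me3 peaks and in 17.8% of those on chromosome 15 outside the window. Its density was low in WT, at 7.76 normalized reads per kb with 17.8% of H3K27me3 peaks below it. In K36M it was 4.22, with 2.00% below it. The domain lay in the 360 kb gap between the outermost H3K36me2 peak and the chain, 113 kb from the one and 163 kb from the other. The chain, where H3K36me2 was lowest relative to WT, held no listed H3K27me3 peak, and none was listed at Myc or Pvt1. Signal outside listed peaks is not part of these tables. Low H3K27me3 ratios were also listed farther upstream, but not in the peaks nearest to the window. Of the 5 nearest H3K27me3 peaks before it, those at 1302 and 2476 kb had ratios of 0.936 and 0.919. Those at 4207, 4515 and 6140 kb had ratios of 0.627, 0.533 and 0.410. The 5 nearest after the window had ratios of 0.911 to 1.09.

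Of the 17 peaks, 16 were below the median of their own mark and 13 below its chromosome 15 median. H3K36me2 had 13 of 14 peaks below its median, H3K36me3 both of its peaks and H3K27me3 its only one. On chromosome 15 as a whole, 174 of 291 H3K36me2 peaks, 231 of 279 H3K36me3 peaks and 87 of 119 H3K27me3 peaks were below the medians of their marks. Below the chromosome 15 medians, the counts in the window were 11 of 14, 1 of 2 and 1 of 1. The H3K36me2 ratios inside the window ran from 0.155 to 0.413. The input libraries were not analysed here, and whether the number of copies of the segment differed between the cell lines was not tested.

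The low H3K36me2 ratios beyond Pvt1 reached the downstream edge of the window, where the last peak crosses it with a ratio of 0.182. Outside the window the next listed H3K36me2 peaks lay 315 kb before it and 525 kb after it. The nearest peak before it, from 59604200 to 59684599, had 3991 normalized reads in the WT library against 886 in the K36M one, a ratio of 0.222. The 5 nearest peaks on that side were 2.85-fold to 4.77-fold lower. After the window the nearest peak, from 63024800 to 63027999, had 161 (WT) against 31.7 (K36M) normalized reads and a ratio of 0.197 (0.144 to 0.267), from only 149 and 61 reads. The 5 nearest peaks on this side were 2.72-fold to 5.07-fold lower. The smallest difference on each side, 2.85-fold and 2.72-fold, was in a peak that overlaps listed H3K36me3, as no chain peak does. Another overlapping peak, before the window, was 4.64-fold lower. Some peaks without the overlap were also less than 4-fold lower, at 3.84-fold before the window and 3.44-fold and 3.70-fold after it. The others without it were 4.51-fold to 5.07-fold lower. Of these 10 peaks, 4 were lower by more than the last peak of the chain, which was 4.63-fold lower, and none by more than its other 5 peaks, at 5.18-fold or more. The counting interval of the peak after the window takes in the ratios of all 6 chain peaks. A tiny H3K36me3 peak 2 kb past the end of the window, from 62502000 to 62503199, had 25.4 (WT) against 6.16 (K36M) normalized reads, a ratio of 0.243 from 28 reads in K36M.

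In windows of the same 2.5 Mb width along chromosome 15, the one with Myc and Pvt1 had the highest summed WT H3K36me2 signal of 34 windows with a listed peak. It held 10.2% of the chromosome's listed WT signal for this mark in 9.95% of its listed length. Of the 25 windows with at least 5 H3K36me2 peaks, 6 had a lower median log2 ratio, so the low ratios are not confined to this window. The windows on either side of it lay above the median of the mark, by 0.09 (16 peaks) and 0.08 (6 peaks), while the one around Myc lay 0.34 below (14 peaks). For H3K36me3, the 2 peaks of the Myc window put it 0.22 below the median of the mark, and the windows beside it were 0.13 and 0.24 below.

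**Figure D4:**
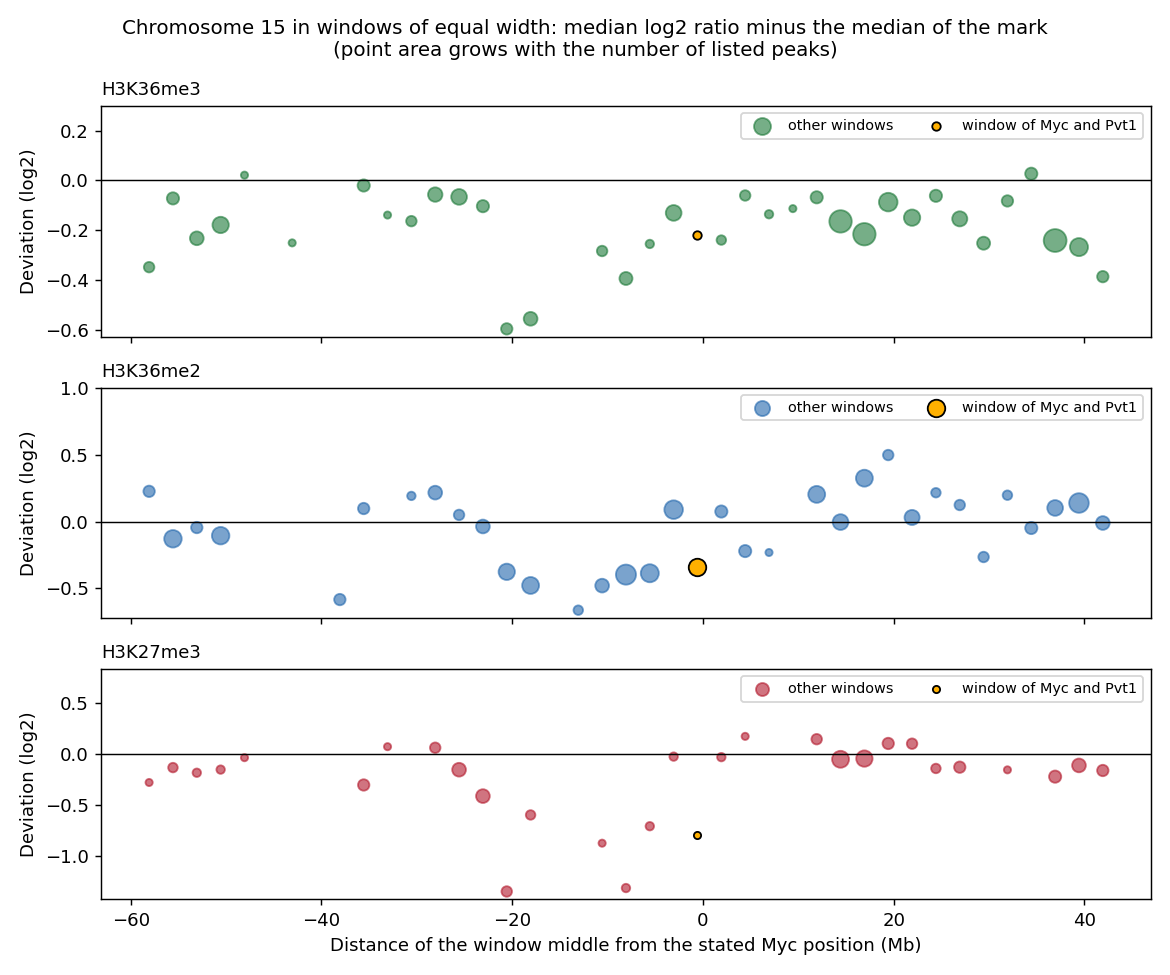
Median log2 ratio minus the median of the mark (vertical axes, one panel per mark) for windows of equal width along chromosome 15, against the distance of the window's middle from the stated Myc position in Mb, with point area growing with the number of listed peaks. The window of Myc and Pvt1 (yellow) lies 0.22 below for H3K36me3, 0.34 below for H3K36me2 and 0.79 below for H3K27me3, from 2, 14 and 1 peaks. The windows next to it differ from it most for H3K27me3, for which each window near Myc rests on 1 or 2 peaks.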

How the data were processed

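The 8 samples of the series are 6 ChIP libraries (3 marks, 2 genotypes) and 2 input libraries, which were not analysed here. The authors deposited 1 table of peaks per mark with a signal for each genotype, the reads per peak scaled to the Drosophila spike-in per the file headers. The submitters' processing notes name Bowtie 1.0.0 and the builds mm9 (mouse) and dm6 (Drosophila). How and in which libraries peaks were called, and how the factor was computed, is not given in the sources used here. The tables may not list all peaks. The mouse build is taken as mm9. Coordinates are printed as deposited and appear to count from 0, so that adding 1 to both ends gives browser positions.

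In each column the values are whole multiples of 1 step, taken as the factor per read: H3K36me3 0.39 in WT and 0.22 in K36M, H3K36me2 1.08 and 0.52, H3K27me3 0.18 and 0.26. Reads inside all listed peaks numbered 915902 to 11294217 per library. In the window a peak held at least 135 reads per library. Ratios of K36M over WT used no pseudocount. Ratios and counting intervals were tested on simulated counts. All peaks of the window are covered, and the members, lists and thresholds were chosen with earlier results of these data known. Per mark, values of each peak were printed for up to 12 peaks. Beyond that, the rule was the 4 lowest and 4 highest ratios, the 3 highest WT values, the peaks next to Myc and those that overlap another mark, and the others were added. Python 3.11.15, numpy 2.4.6, pandas 2.3.3, scipy 1.17.1 and matplotlib 3.10.9 were used.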

Additional observations from a re-analysis of the deposited data

How the results depend on the processing

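Of 83 recalculated values, 61 stayed within the counting interval, the interval over peaks or 1.5 times the count of the value reported. Part of these could not move, so the share does not measure robustness. For H3K27me3, choices by position or by mean kept its only peak. For H3K36me3, the peaks wholly inside the window and those within 0.5 Mb of Myc were the same 2. The interval over these 2 peaks is their range, so the median without 1 of them falls on its end. Equal totals for the libraries of a mark, which removes the global difference by construction, gave median log2 ratios of −0.22 for H3K36me3 and −0.40 for H3K36me2. The summed ratios were then 0.900 and 0.800, and 0 peaks of either mark were at least 4-fold lower. Adding a pseudocount (5th percentile) changed the H3K36me3 median to −1.60, its deviation from the mark to −0.15, its summed ratio to 0.291 and its count to 0, with 1 peak reported. It reversed the H3K36me3 deviation from chromosome 15 from −0.048 to 0.030. It moved the H3K36me2 summed ratio to 0.207 and its deviation from the mark to −0.52. The H3K36me2 median of the window itself went from −2.41 to −2.28, so the larger deviation came from a larger rise in the median of the mark. Why that median rose by more was not tested. The summed H3K36me2 ratio was 0.173 upstream of Myc, 0.224 within 0.5 Mb of Myc and 0.188 without the longest peak, and that of H3K36me3 was 0.250 without its longest peak. Rounded factors, added after the data were seen, allow 0.265 to 0.284 for H3K36me3. With only the peaks whose mean reached the median of the mark, the H3K36me3 peak over Myc dropped out. The 1 peak left was not 4-fold lower, so the count was 0. At 2-fold the counts were 2 for H3K36me3 and 0 for H3K27me3. Another 10 recalculations were not run because no peak was left. No paired analysis was possible because each genotype and mark has 1 library, so leaving out replicates was not possible either. The error between cultures was not measured.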
